A study of Arabidopsis thaliana with 6 samples.

Results

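FRUITFULL (FUL) peaks shared by pistils and inflorescence meristems (IM) of Arabidopsis thaliana are the peaks of one tissue's ChIP-seq list that were chosen by their overlap of at least 1 bp with a peak of the other tissue's list. Of the 3494 peaks of the pistil list, 2216 were shared, which is 63.4% (Wilson 95% interval 61.8 to 65.0). Of the 3650 peaks of the IM list, 2170 were shared, which is 59.5% (57.9 to 61.0). The counts differ because some peaks had several partners. Overlap chose the members, so these shares describe the lists and no test is attached to them. Because the plants differed in tissue and in genotype, the contribution of each to a difference between the lists cannot be told apart.

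The pistil samples were stage 12 to 16 pistils of pFUL:FUL-GFP ful-1 plants, in which a GFP-tagged FUL protein was made from the FUL promoter in a ful mutant. The IM samples were uninduced inflorescence-like meristems of plants aged 4 to 5 weeks that carried pFUL:FUL-GFP together with 35S:AP1-GR in an ap1-1 cal-1 double mutant, in which meristems accumulate in place of flowers. All plants carried pFUL:FUL-GFP, were of ecotype Ler/Col F2, and grew untreated at 21 °C in days of 16 h light and 8 h dark. Each tissue had 2 biological ChIP replicates, precipitated with anti-GFP microbeads, and 1 input library without antibody. Tissue was fixed for 15 to 30 min. One peak list per tissue, called on the replicates together, was analysed, so no spread between replicates could be computed and read depth is unknown. A peak list holds no expression values, so the labelled tissues could not be checked against marker genes. Whole pistils and meristem clusters each hold several cell types, and fewer cells with FUL at a site and less FUL per cell cannot be told apart.

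FUL is a MADS-domain transcription factor. Proteins of this family bind DNA as dimers and higher-order complexes at CArG boxes, and the makeup of the complex is thought to influence which sites are occupied. FUL promotes the floral transition in the meristem together with SOC1, and in the fruit it promotes growth of the valves and keeps valve margin genes such as SHP1, SHP2 and IND out of them.

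Each peak carries a fold enrichment at its summit, the authors' ratio of signal over background, and a −log10 p. The lists ended at different limits, a −log10 p of 34.4 for pistil and 22.4 for IM, so folds were ranked only within their own list. A percentile of 100 marks the highest fold of a list and 0 the lowest. Among the shared peaks, the median fold was 4.53 in the pistil list and 4.16 in the IM list. Peaks of one list only had median folds of 3.67 in pistil and 3.43 in IM. A wider peak is more likely to overlap another, so width bears on membership. The median width of shared peaks and of peaks of one list only was 966.5 bp against 805.5 bp in pistil and 1195 bp against 953 bp in IM. Of the shared peaks, 24.1% of the IM members lay below the limit at which the pistil list ended, against 52.8% of the IM-only peaks. On the 5 chromosomes the shared share ran between 61.6% and 66.3% of pistil peaks and between 56.8% and 61.1% of IM peaks.

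The shared peaks formed 2237 overlapping pairs. In 2067 of them each peak had exactly 1 partner, and values over pairs below rest on these 1-to-1 pairs. For members of the gene lists below, values are those of the gene's best-ranked pair. At SEP3, SVP, FUL, TOE3, AP2, TEM1, HEC1, LOG1 and CKX5 a peak of that pair had a second partner. Elsewhere a gene's name marks the pair described, and the gene can have other shared pairs. The median overlap was 868 bp, with a range of 60 to 5362 bp. In 1849 pairs, or 89.5%, the overlap covered at least 50% of each partner. The pistil peak lay wholly inside its IM partner in 1191 pairs (57.6%), and the IM peak wholly inside its pistil partner in 202 (9.77%). The remaining pairs came from 63 IM peaks with 2 pistil partners, 2 IM peaks with 3, and 21 pistil peaks with 2 IM partners.

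At the edge of the rule, over all 2237 pairs, those with the least overlap were at CRF10, a cytokinin response factor gene (1 bp), XBAT31 (17 bp), the jasmonate synthesis gene AOS (60 bp), the homeobox gene ATHB13 (74 bp) and the expansin gene EXPA10 (77 bp). The summits of these 5 pairs were 1092, 1542, 1188, 1431 and 1282 bp apart, so the partners' highest points were not at 1 position. Just outside the rule, the closest peaks without a partner were 22 bp (AT1G70790), 29 bp (AT4G15430), 37 bp (NIT2), 38 bp (AT5G15220) and 43 bp (AT1G33250) from a peak of the other list. Only 6 of the 1278 pistil-only peaks and 4 of the 1480 IM-only peaks lay within 100 bp of the other list, and the median gap was 7151 bp for pistil-only and 8560 bp for IM-only peaks.

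Ordered by the worse of the partners' ranks, the first 1-to-1 pair was next to ATG18C, an autophagy gene, on chromosome 2. Its pistil peak (17031398 to 17032859, TAIR10) had a fold of 15.3 and rank 1, and its IM peak (17029027 to 17033094) had a fold of 9.32 and rank 4. The summits were 13 bp apart and 244 bp (pistil) and 231 bp (IM) from the gene. The microRNA gene MIR319c, whose product targets TCP growth regulator transcripts, lay 2269 bp from the pistil summit and 2282 bp from the IM summit of the same pair. The next best pairs by the worse of their ranks were at AT5G21280 (ranks 6 in pistil and 10 in IM) and AT5G58900 (18 and 5). The MADS-box gene SOC1, also named AGL20, an integrator of flowering signals, came after them with a fold of 14.3 and rank 9 in pistil and a fold of 8.36 and rank 22 in IM. The SOC1 peaks were broad, 4536 bp in pistil (chromosome 2, 18810424 to 18814959) and 5248 bp in IM (18809925 to 18815172), and their summits differed by 39 bp.

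The MADS-box genes SHP2 and AGL18 were also among the 10 best pairs. SHP2, a valve margin identity gene, had a fold of 12.2 and rank 39 in pistil and a fold of 8.14 and rank 29 in IM, with summits 7 bp apart. AGL18, a repressor of flowering, had rank 47 in pistil and rank 3 in IM, with folds of 11.9 and 9.63, and both summits lay inside the gene. The others were AT5G44590 (ranks 7 in pistil and 24 in IM), AT5G52660 (22 and 25), the uridine kinase-like gene UKL3 (54 and 7) and AT4G27810 (59 and 49). In these 10 pairs the summits were 3 to 39 bp apart.

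Over all peaks, 63.4% of the pistil list and 59.5% of the IM list had a partner. Peaks with a partner of high rank are part of those with any partner, so their count cannot be the larger. Of the 100 pistil peaks with the highest fold, 89 had an IM partner but 25 had one among the IM top 100. Of the 100 IM peaks with the highest fold, 97 had a pistil partner and 24 had one among the pistil top 100. Among the top 50, 45 pistil peaks had an IM partner and 10 one in the IM top 50, while all 50 IM peaks had a pistil partner and 10 one in the pistil top 50. At the top 1000, 80.6% of pistil peaks and 84.0% of IM peaks had a partner, and 48.5% of the pistil peaks and 48.3% of the IM peaks had one in the other list's top 1000.

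Across the 1-to-1 pairs, Spearman's rho between the folds of partners was 0.39. It was 0.44 for −log10 p and 0.62 for width. These describe 2067 sites that share 2 lists, and no p is given. The median percentile was 58.8 in pistil and 62.6 in IM, and the median difference, pistil minus IM, was -1.91 points with quartiles of -21.7 and 16.6. Partners stood within 10 points of each other in 617 pairs (29.9%). When each list was cut into 4 parts by fold, 391 pairs (18.9%) were in the highest part of both lists and 101 in the lowest of both. A further 51 were in the highest part in pistil and the lowest in IM, and 66 in the lowest part in pistil and the highest in IM.

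**Figure D1:**
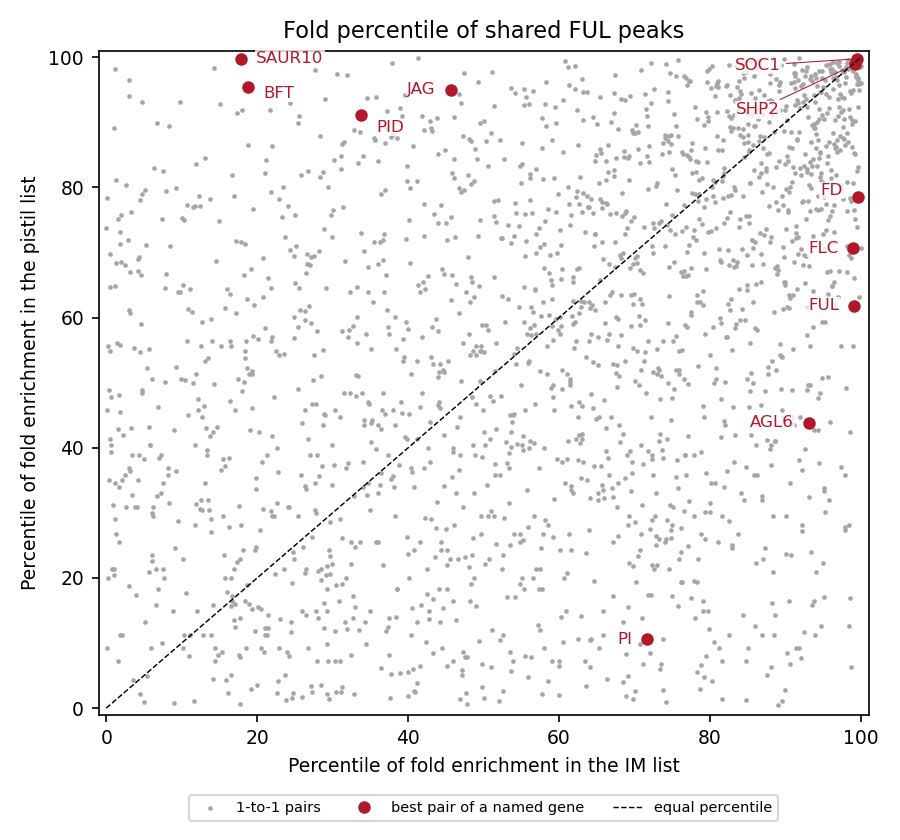
Percentile of fold enrichment within the pistil list (vertical axis) against that within the IM list (horizontal axis). Each gray point is 1 of 2067 1-to-1 pairs, red points are the best pair of a named gene, and the dashed line marks equal percentiles. Points crowd the upper right corner, where SOC1 and SHP2 lie, but spread over the whole square (rho 0.39), with SAUR10 and BFT higher in pistil and PI, AGL6, FUL and FLC higher in IM.

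The pistil percentile was at least 50 points above the IM percentile in 126 pairs, 6.10% of the 1-to-1 pairs, and at least 50 points below it in 147, or 7.11%. The pair furthest above in pistil was next to CGR3, a pectin methyltransferase gene, with a fold of 11.4 and rank 65 in pistil and a fold of 2.72 and rank 3610 in IM. It was followed by SKIP5 (ranks 123 in pistil and 3539 in IM), the MEI2-like RNA-binding protein gene ML4 (208 and 3540), AT5G11940 (242 and 3478) and the cytokinin activation gene LOG6 (376 and 3613). In these 5 pairs the summits lay 1 to 44 bp apart, so positions were close where ranks were not. ML4 had another shared site within 3 kb, at ranks 1995 in pistil and 1766 in IM.

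In the other direction, CYP81F3, a cytochrome P450 gene of indole glucosinolate metabolism, had a fold of 3.04 and rank 3270 in pistil and a fold of 7.90 and rank 47 in IM. It was followed by AT3G06130 (ranks 3479 in pistil and 401 in IM), AT2G23450 (3458 and 383), XPL1, a phosphoethanolamine methyltransferase gene (3396 and 367), and the zinc finger gene IDD1 (3055 and 57). Their summits were 58 to 121 bp apart. These values are of 1 pair each, and some of the genes had another shared site within 3 kb. CYP81F3 had one with folds of 11.5 in pistil and 6.92 in IM (ranks 61 and 152). IDD1 had one at ranks 218 and 83, AT3G06130 at 740 and 385, and XPL1 at 1255 and 231. The members of these 2 groups of 5 were chosen for their difference in rank, which is a description without a replicate check.

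Shared sites were narrower in the pistil list, as were its peaks as a whole, with medians over all peaks of 904 bp in pistil and 1075.5 bp in IM. The median width was 958 bp in pistil and 1168 bp in IM, and the median log2 ratio of partners, pistil over IM, was -0.23 (quartiles -0.51 and -0.01), a ratio of 0.853. The pistil peak was the narrower in 1566 pairs (75.8%) and the wider in 498, and 3 pairs had equal widths. The IM peak was more than 2 times as wide as its partner in 189 pairs (9.14%), and the pistil peak in 15 (0.726%). Width moved with rank: in 5 equal groups of pairs, from the lowest pistil percentile relative to IM to the highest, the median log2 width ratio was -0.45, -0.36, -0.22, -0.12 and -0.05. Depth and the limit of each list also bear on where a caller ends a peak, and their part in the widths was not tested.

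**Figure D2:**
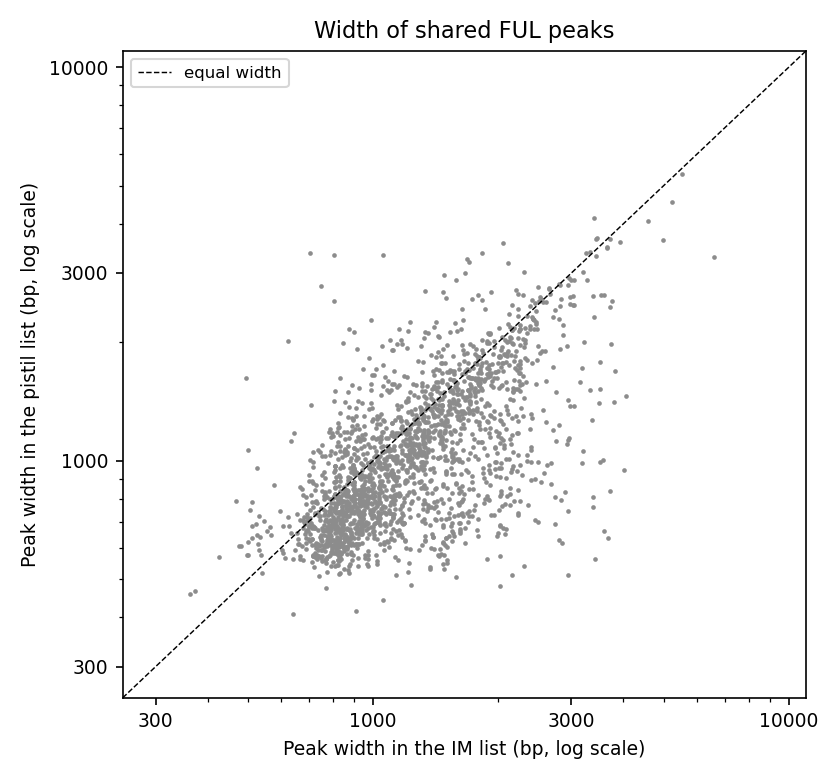
Width of the pistil peak (vertical axis, bp, log scale) against that of its IM partner (horizontal axis, bp, log scale) for 2067 1-to-1 pairs, 1 point a pair. Most points lie below the dashed line of equal width (1566 of 2067), and 15 pairs have a pistil peak more than 2 times as wide.

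The largest width ratios toward IM were at RCD1 in pistil and KAN2 in IM (562 bp in pistil and 3414 bp in IM), the homeobox gene HB-1 (637 and 3672 bp), AT3G13404 (512 and 2937 bp), AT5G11730 (665 and 3582 bp) and AT1G72810 (617 and 2851 bp). All 5 of these IM peaks held several summits and their pistil partners held 1. Several summits were read from a letter at the end of the peak's name, as a list keeps 1 row for each region. The largest toward pistil were at the sugar transporter gene STP1 in pistil and the syntaxin gene SYP125 in IM (3369 bp in pistil and 707 bp in IM), AT5G25280 in pistil and AT5G25290 in IM (3340 and 804 bp), AT5G64780 (2784 and 750 bp), NUDT11 (1627 and 494 bp) and BFT (2009 and 624 bp). Here the pistil peaks held several summits and the IM peaks 1, so on both sides the wide partner was the one with several summits. Some of the genes named here were far from their summit: STP1 by 3556 bp, SYP125 by 3564 bp and KAN2 by 3537 bp.

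Summits of partners lay close together. The median distance was 41 bp, with quartiles of 17 and 91 bp. It was at most 50 bp in 56.4% of pairs and at most 100 bp in 77.5%, and over 200 bp in 214 pairs, or 10.4% (9.11 to 11.7). The pistil summit lay at the higher coordinate in 1010 pairs, at the lower in 1037 and at the same base in 20, so neither side prevailed. Overlap was required of partners, which limits how far apart their summits can be.

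Large shifts went with peaks that held more than 1 summit. In the 1131 pairs with 1 summit in both lists, the median distance was 33 bp and 1.86% (1.22 to 2.82) were over 200 bp. Where the pistil peak alone held several summits (316 pairs), the median was 53 bp and 11.7% were over 200 bp. Where the IM peak alone did (231 pairs), these were 56 bp and 16.9%. In the 389 pairs with several summits in both lists, they were 65 bp and 30.1% (25.7 to 34.8). A list keeps 1 row for each region, so a large shift can be a change in which of several summits was kept.

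**Figure D3:**
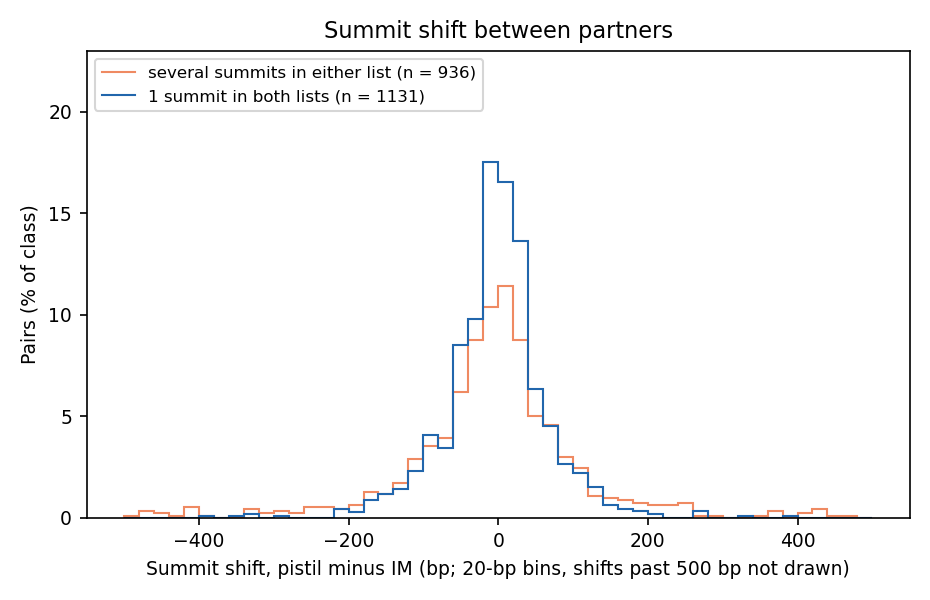
Share of pairs (vertical axis, percent of the class) by summit shift, pistil minus IM, in bins of 20 bp (horizontal axis), for pairs with several summits in either list (orange) and pairs with 1 summit in both (blue). Both curves are centred near 0, and the blue one is narrower, with a median distance of 33 bp.

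The distance between summits was also smaller where the fold was high in both tissues. In 5 equal groups of pairs sorted by the lower of the partners' percentiles, low to high, the median distance was 59.5, 48, 48, 33 and 26 bp. Among pairs with 1 summit in both lists it was 52, 36, 38.5, 27 and 22 bp. Wider peaks had the larger distances, with medians of 30, 36, 46.5 and 62 bp from the narrowest to the widest of 4 parts by the wider partner. The 5 best-ranked pairs with a shift of 10 bp or less were at AT5G44590, SHP2, the receptor-like protein gene RLP32, the glycosyltransferase gene UGT73B2 and ATC, a relative of TFL1.

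**Figure D4:**
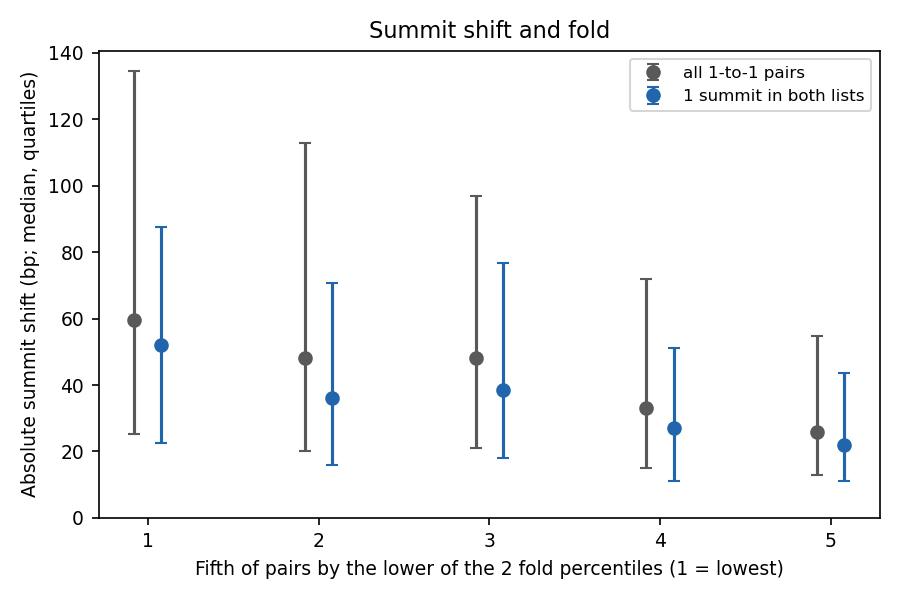
Median distance between the summits of partners (vertical axis, bp) in 5 equal groups of pairs sorted by the lower of the partners' fold percentiles (horizontal axis, low to high), with bars from the lower to the upper quartile, for all 1-to-1 pairs and for those with 1 summit in both lists. In all pairs it was 59.5 bp in the lowest group and 26 bp in the highest, and in pairs with 1 summit in both it was 52 and 22 bp.

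The largest shift was 4300 bp, with the pistil summit nearest to AT1G78260 (4926 bp away) and the IM summit nearest to TSD2 (961 bp), a methyltransferase gene of cell adhesion. The next was 2796 bp, with the pistil summit nearest to AT3G15220 and the IM summit inside ERF4, a gene for a repressor of the ethylene response factor family. Shifts of 2192 bp at PG2 and 1836 bp at AT1G79120 left the nearest gene the same in both lists. PG2 lay 3911 bp from its pistil summit and 1719 bp from its IM summit. At 1904 bp, a further pair had its pistil summit nearest to AT1G23390 and its IM summit nearest to the meristem homeobox gene KNAT6. In all 5 pairs both peaks held several summits.

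Despite such pairs, the nearest protein-coding gene was the same for both summits in 1960 of 2067 pairs (94.8%). It was the same in 154 of the 214 pairs with a shift over 200 bp (72.0%). Distances used a RefSeq gene table without strand, so a site before a gene and a site after it are not separated. Both summits lay inside a gene in 511 pairs and both beyond 3 kb of any gene in 70, and 1865 pairs (90.2%) had both summits in the same class of inside a gene, within 1 kb, 1 to 3 kb, or beyond 3 kb. With the same nearest gene, the pistil summit was the nearer to it in 711 pairs, the farther in 735 and equally far in 514. Outside genes the median distance was 548 bp for pistil summits and 533.5 bp for IM summits.

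Position relative to genes was not used in choosing the members, so shared peaks were set against the other peaks of their list. Only peaks with a −log10 p of at least 34.4, the end of the pistil list, entered, so 525 pistil peaks whose IM partner lay below that limit counted as unshared here. Of the shared pistil peaks 4.20% (3.34 to 5.26; 71 of 1691) lay beyond 3 kb of any gene, against 6.21% (5.19 to 7.42; 112 of 1803) of the unshared pistil peaks, an odds ratio of 0.662 (Fisher's exact test, two-sided, p = 0.031 with Benjamini-Hochberg adjustment over 8 tests). Of the shared IM peaks 27.2% (25.1 to 29.4; 448 of 1647) had their summit inside a gene, against 33.2% (29.8 to 36.8; 232 of 699) of the IM-only peaks, an odds ratio of 0.752 (same test, adjusted exact p = 0.031). Without the limit, the pistil shares were 3.79% (84 of 2216) against 7.75% (99 of 1278). The IM difference was not past the threshold of 0.05 when sharing required 50% of each partner (odds ratio 0.885, adjusted exact p = 0.31). The other 6 comparisons did not pass, with adjusted exact p between 0.088 and 0.47. The 4 classes of a list are parts of 1 whole, and peaks are not replicate plants, so these p-values describe the lists.

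A gene was counted as having a shared site when both summits of a pair lay in the gene or no more than 3 kb from it. This was so for 4000 of 27444 protein-coding genes, 14.6%, and for 7.76% within 1 kb and 6.82% when the gene had to be nearest to both summits. Most pairs near a gene reached several genes: 1544 of 2140 had 2 or more, so a site does not name its target. Of the 4210 genes with a summit of each list within 3 kb, 210 (4.99%) had them at no shared site. One pair served 3593 genes, 2 pairs 381, 3 pairs 23 and 4 pairs 3 genes. These 3 were AT1G75580, the ubiquitin ligase gene XBAT31 and BRG1. At BRG1 the 4 pairs were separate 1-to-1 sites, with folds of 4.84, 3.19, 3.45 and 3.09 in pistil and 3.56, 5.01, 2.73 and 2.59 in IM.

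The chains with the most peaks were at AT1G75580 (3 pistil and 2 IM peaks over 7362 bp) and at MYBR1 and AT5G67290 (3 and 2 over 4778 bp). In the CBF cluster, whose genes regulate cold acclimation, 1 IM peak of 5996 bp with a fold of 8.89 and rank 12 overlapped 3 pistil peaks with folds of 11.9, 6.49 and 3.18 near CBF2 and DREB1A. A chain of 4 peaks lay at XBAT31. At AP2 and LEJ2, 1 IM peak with a fold of 7.76 overlapped 2 pistil peaks with folds of 15.1 and 15.0, which ranked among the highest of the pistil list.

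The gene lists below were chosen with earlier results of these data known, so their shares are descriptions. Floral MADS-box genes, the family of FUL itself, had a shared site at 16 of 29 genes, 55.2% (37.5 to 71.6), beside 14.6% of all genes. Within 1 kb it was 10 of 29, beside 7.76%, and with the gene nearest to both summits 11 of 29, beside 6.82%. The flowering regulators SOC1, AGL15, AGL18, SVP and FLC were among them, as were the E-class genes SEP1 to SEP4, the B-class genes AP3 and PI, and AG, SHP1, SHP2, AGL6 and FUL. Both partners were in the highest 25% of their lists by fold at 9 of the 16, beside 20.7% of all genes with a shared site. At SEP3, SVP, FLC, AGL6 and PI another gene was nearer to the pistil summit. AGL42 had summits of each list at different sites. AP1 had a pistil summit only, beside 6.01% of all protein-coding genes, and AGL71 and MAF2 an IM summit only, beside 8.36% of all. No summit lay within 3 kb of AGL24, CAL, STK, AGL72, AGL79 or the remaining MAF genes.

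Among these genes, AP3, a petal and stamen identity gene, had folds of 6.75 in pistil and 5.84 in IM, inside the gene, with summits 1 bp apart. SVP, a repressor of flowering, had folds of 9.05 in pistil and 7.40 in IM. By percentile, AP3 stood at 84.0 in pistil and 89.1 in IM, and SVP at 93.5 and 97.6. AG, the carpel and stamen identity gene, stood at the 68.0 percentile in pistil and the 92.3 percentile in IM, with both summits inside the gene. FLC, the vernalization-sensitive repressor, stood at 70.7 in pistil and 99.0 in IM, at a site nearer to AT5G10150. PI had percentiles of 10.5 in pistil and 71.7 in IM, AGL6 43.9 and 93.1, and SEP2 40.4 and 86.1. The percentile was lower in pistil at 13 of the 16, beside 55.8% of all genes with a shared site. With percentiles taken above 1 limit on −log10 p in both lists it was lower at 9 of 16, beside 44.7% of all such genes.

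At FUL itself, listed as AGL8, the best pair had a pistil peak of 5096 bp with a fold of 4.68 (percentile 61.8) and an IM peak of 9767 bp with a fold of 8.10 (percentile 99.1), the widest peak of the IM list. The IM peak overlapped 2 pistil peaks, and the summits of the best pair were 2356 bp apart, 2438 bp (pistil) and 82 bp (IM) from the gene. All plants carried the pFUL:FUL-GFP transgene, so the FUL locus and the transgene cannot be told apart in these values.

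AP2-like genes, which encode repressors of flowering and organ identity factors, had a shared site at 5 of 6 genes (83.3%, 43.6 to 97.0), beside 14.6% of all genes. At all 5 both partners were in the highest 25% of their lists, beside 20.65% of all genes with a shared site. AP2 had folds of 15.1 in pistil and 7.76 in IM, TOE3 14.2 and 7.94, SMZ 9.72 and 6.75, TOE1 8.29 and 6.74, and SNZ 6.28 and 6.06. By percentile, TOE1 stood at 91.1 in pistil and 94.9 in IM, and SNZ at 80.8 and 90.8. AP2, TOE3 and SMZ were higher in pistil by no more than 1.67 points. TOE2 was without a summit. At SMZ and SNZ another gene was nearer to the site.

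Genes of flowering time and inflorescence form had a shared site at 11 of 20 (55%, 34.2 to 74.2), beside 14.6% of all genes. ATC, a relative of TFL1, had a fold of 12.6 and percentile 99.2 in pistil and a fold of 7.20 and percentile 97.1 in IM. LFY, the meristem identity gene, stood at percentile 73.7 in pistil and 68.9 in IM, with both summits inside the gene. FD, the bZIP partner of FT, stood at percentile 78.6 in pistil and 99.6 in IM, and TFL1, which keeps the inflorescence indeterminate, at 72.3 and 91.7. BFT, another gene of that family, went the other way, at 95.5 in pistil and 18.8 in IM, with summits 1 bp apart. SPL4, SPL5, SPL9, TEM1, TEM2 and LMI1 were the other members. The percentile was higher in pistil at 8 of the 11 and lower at 3, beside 44.2% and 55.8% of all genes with a shared site. With percentiles taken above 1 limit on −log10 p, the percentile was lower in pistil at 2 of the 11, beside 44.7% of all such genes. At FD, SPL5, SPL9 and LMI1 another gene was nearer to the site, and the FD summits were 525 bp apart. FT and SPL3 had a pistil summit only, beside 6.01% of all protein-coding genes. FDP and SPL15 had an IM summit only, beside 8.36% of all, and CO, GI, TSF, MFT and FLD had none.

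Shoot meristem and boundary genes had a shared site at 8 of 21 (38.1%, 20.8 to 59.1), beside 14.6% of all genes. ATH1, a BELL homeobox gene, had folds of 9.38 in pistil and 7.27 in IM, 37 bp (pistil) and 76 bp (IM) from the gene. BRC1, an inhibitor of bud outgrowth, had folds of 10.1 in pistil and 5.00 in IM. By percentile, ATH1 stood at 94.4 in pistil and 97.2 in IM, and BRC1 at 96.2 and 79.6. KNAT6 also held a 1-to-1 shared site inside the gene, with percentiles of 61.6 in pistil and 90.2 in IM. The boundary gene BOP1 stood at 40.4 in pistil and 88.0 in IM, BOP2 at 38.9 and 69.0, the receptor gene CLV1 at 69.6 and 84.8, and HB21 at 9.26 and 22.9. PNY, also known as RPL, was higher in pistil, at 88.5 against 33.6 in IM. An IM summit only was found at 6 of the 21 (STM, WUS, CUC1, CUC3, KNAT2 and PNF), beside 8.36% of all protein-coding genes. HB53 had a pistil summit only, beside 6.01% of all. CUC2 and KNAT1 had summits of both lists at different sites, and CLV3, HB40, LAS and UFO had none. At CLV1 another gene was nearer to the site.

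Gynoecium and fruit genes had a shared site at 7 of 24 (29.2%, 14.9 to 49.2), beside 14.6% of all genes. ETT, the auxin response factor that patterns the gynoecium, had folds of 9.54 in pistil and 8.91 in IM, 2352 bp (pistil) and 2327 bp (IM) from the gene. ADPG2, a polygalacturonase gene of pod opening, had folds of 10.2 in pistil and 6.18 in IM, inside the gene. JAG, a promoter of lateral organ growth, had folds of 9.54 in pistil and 3.65 in IM, 171 bp (pistil) and 250 bp (IM) from the gene. ETT had rank 173 in pistil and rank 11 in IM, ADPG2 125 and 307, and JAG 173 and 1985. HEC1, HEC2, NGA3 and RPL were the other members. By percentile, HEC1 stood at 83.4 in pistil and 90.6 in IM, HEC2 at 36.8 and 53.4, and NGA3 at 15.4 and 40.6. RPL stood at 88.5 in pistil and 33.6 in IM. The percentile was lower in pistil at 4 of the 7, ETT among them, and higher at 3. Of all genes with a shared site, 55.8% were lower and 44.2% higher in pistil. At 1 limit on −log10 p it was lower at 2 of the 7, beside 44.7% of all such genes. IND, FIL, HAF, NGA1 and NGA2, 5 of the 24, had a pistil summit only, beside 6.01% of all protein-coding genes. ALC, ADPG1, KNU and STY1, 4 of the 24, had an IM summit only, beside 8.36% of all, and 8 genes had none.

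**Figure D5:**
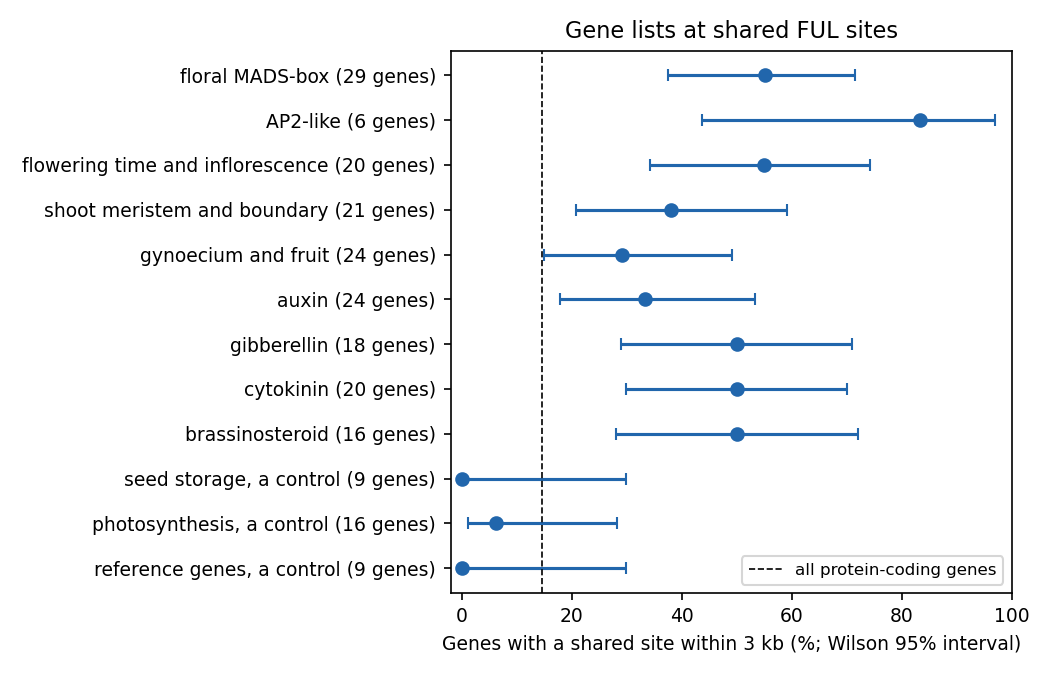
Share of the genes of each list with a shared site within 3 kb (horizontal axis, percent), with its Wilson 95% interval, which covers counting error only; the dashed line is the share of all protein-coding genes (14.6%). The lists of floral and hormone genes lie to the right of the line, from 29.2% for gynoecium and fruit to 83.3% for AP2-like genes, and the points of the 3 control lists lie to its left with intervals that cross it. All lists were chosen with earlier results of these data known, so the figure is a description.

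The hormone lists held shared sites at 8 of 24 auxin genes (33.3%), 9 of 18 gibberellin genes (50%), 10 of 20 cytokinin genes (50%) and 8 of 16 brassinosteroid genes (50%), beside 14.6% of all genes. Control lists had 0 of 9 seed storage genes, 0 of 9 reference genes (0 to 29.9% for each) and 1 of 16 photosynthesis genes (1.11 to 28.3%). The last was LHCB4.1, at a site nearer to RUS5. The intervals of all 3 control lists hold the share of all genes. A pistil summit only was found at 7 auxin, 0 gibberellin, 3 cytokinin and 3 brassinosteroid genes, beside 6.01% of all protein-coding genes. An IM summit only was found at 3, 3, 1 and 0 genes of these lists, beside 8.36% of all. Among seed storage, photosynthesis and reference genes, 0, 1 and 1 had a pistil summit only. With an IM summit only there were 1, 2 and 2. The lists are short, were chosen with earlier results known, and their genes differ in neighbourhood from a random gene, so no test is attached.

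SAUR10, a small auxin-up RNA gene, had the largest gap in percentile of all list members. Its pistil peak (chromosome 2, 7830945 to 7833110) had a fold of 14.3, percentile 99.8, and its IM peak (7831995 to 7832869) a fold of 3.09, percentile 17.8, with summits 108 bp apart and 1254 bp (pistil) and 1362 bp (IM) from the gene. The kinase gene PID, which directs auxin carriers, had 3 shared pairs, the best at percentile 91.2 in pistil and 33.8 in IM. The carrier gene PIN3 stood at 81.4 in pistil and 46.1 in IM and PIN7 at 44.4 and 64.8. The conjugation gene GH3.3 stood at 94.2 in pistil and 82.6 in IM, and the synthesis gene YUC1 at 88.5 and 70.4, at a site nearer to LUG. Of the 8 auxin genes, 6 had the higher percentile in pistil, beside 44.2% of all genes with a shared site.

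In the gibberellin list, the catabolic gene GA2OX1 had folds of 12.0 in pistil and 6.84 in IM, and GA2OX8 7.75 and 4.52. The synthesis gene GA20OX1 stood at percentile 37.1 in pistil and 84.7 in IM, while GA20OX3 stood at 68.0 and 27.1. The DELLA repressor genes GAI, RGA and RGL2 and the receptor genes GID1B and GID1C were the other members. GAI stood at 72.1 in pistil and 39.7 in IM, RGA at 34.7 in both, and GID1C at 20.05 in pistil and 56.5 in IM. At GA2OX1, GA20OX1 and RGL2 another gene was nearer to the site.

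In the cytokinin list, the activation genes LOG8 and LOG1 had folds of 11.8 and 9.49 in pistil and of 5.04 and 6.81 in IM. By percentile, LOG8 stood at 98.6 in pistil and 80.3 in IM, and LOG1 at 94.7 and 95.4. LOG3 stood at percentile 48.5 in pistil and 94.5 in IM, inside the gene. Of the oxidase genes, which break cytokinin down, CKX6 stood at 93.8 in pistil and 83.9 in IM, CKX7 at 89.7 and 65.0, and CKX5 at 60.7 and 8.41. The type-A response regulator genes ARR4, ARR5 and ARR7 differed by no more than 6.07 points between the lists. IPT3, a synthesis gene, stood at 5.85 in pistil and 47.1 in IM. At LOG8, CKX6 and ARR5 another gene was nearer to the site.

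In the brassinosteroid list, the receptor gene BRI1 had folds of 10.3 in pistil and 6.41 in IM, with summits 2 bp apart. The transcription factor gene BZR1 had folds of 9.19 and 7.33. By percentile, BRI1 stood at 96.6 in pistil and 93.3 in IM, and BZR1 at 93.9 and 97.4. The coreceptor gene BAK1 stood at percentile 67.0 in pistil and 76.1 in IM, inside the gene. The synthesis gene CPD stood at 39.6 in pistil and 66.2 in IM, and the inactivation gene BAS1 at 77.0 and 63.9. Of the other members, BEE1 stood at 77.0 in pistil and 31.4 in IM, BES1 at 81.5 and 56.2, and BEE3 at 87.1 and 86.5. The percentile was higher in pistil at 5 of the 8 and lower at 3, beside 44.2% and 55.8% of all genes with a shared site. At BZR1, BEE1 and BEE3 another gene was nearer to the site. At BES1 the summits were 1292 bp apart, inside the gene in pistil and 1235 bp from it in IM.

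MicroRNA genes had a shared site at 50 of 326, or 15.3% (11.8 to 19.7), close to the share of protein-coding genes. The MIR156 and MIR157 genes, whose products repress SPL genes in young plants, had one at 10 of 14 (71.4%, 45.4 to 88.3), a family chosen after its values were seen. Of these, MIR156e had folds of 7.60 in pistil and 6.05 in IM (ranks 400 and 338). MIR156f had 6.85 and 6.67 (ranks 539 and 204), and MIR156d 6.25 and 5.67 (ranks 681 and 457). MIR157c had 9.79 in pistil and 5.17 in IM (ranks 155 and 652), and MIR156a 8.47 and 3.10 (ranks 284 and 2995). The sites of MIR156i and MIR156j were those nearest to SPL4 and inside SPL9. MIR168a and MIR168b, which target the slicer AGO1, had folds of 5.77 and 4.97 in pistil and of 4.18 and 4.77 in IM. Their ranks were 829 and 1173 in pistil and 1351 and 862 in IM.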

How the data were processed

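Peak lists of FUL ChIP-seq in pistil and IM were analysed. Per the submitters' processing notes, the tools were MACS2 2.1.0, Bowtie 1.1.2, deepTools and Picard 2.60, with roles not given, and the build was TAIR10. The fold is the authors' ratio at the summit, and the −log10 p and the score, which is 10 times that value without its decimals, are as deposited by the authors. Peak names contain the word pooled and their numbers run to 14602 (pistil) and 13754 (IM), so each deposited list is a selection, by a rule not given in the sources used here, and a missing peak does not show missing binding. Weak sites can be shared or not by where a list ends.

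Positions are counted from 1. Gene names and distances came from a RefSeq table of TAIR10.1, whose coordinates are not printed. Of 216 names in 12 gene lists, 3 did not match, and 6 were matched by a locus given by hand. Members, lists and rules were chosen with earlier results of these data known. Named pairs are those with the best joint rank, the largest differences in rank, summit or width, the least overlap, the closest peaks outside the rule, the chains with the most peaks, and members of the gene lists. Intervals are Wilson 95% intervals and cover counting error only. Shares, pairs and Fisher's exact tests were computed with Python 3.11.15, pandas 2.3.3 and scipy 1.17.1 and checked on simulated lists. Alternatives were a stricter overlap, summits within 200 bp, 1 limit on −log10 p, folds above the median, every overlapping pair, and other gene windows. No genome sequence was used here, so no sequence is printed and motifs were not searched.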

Additional observations from a re-analysis of the deposited data

How the results depend on the processing

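The share of pistil peaks that were shared was 53.9% when at least 50% of each partner had to overlap, 55.1% with summits within 200 bp, 48.4% with 1 limit on −log10 p for both lists and 54.3% among folds above the list's median. The share of IM peaks was 51.6%, 52.8%, 70.2% and 51.3% under the same settings. Spearman's rank correlation between the folds of partners was 0.351 at 1 limit, 0.344 with both folds above the median and 0.436 by −log10 p. The median summit shift was 36 bp at 1 limit and 30 bp with both folds above the median. The median log2 width ratio was -0.20 with 50% of each partner. Genes with a shared site numbered 2131 within 1 kb and 1872 as the nearest gene.

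Among position classes, 4 more passed the threshold once peaks below the common limit entered, beside pistil beyond 3 kb and IM inside genes, which still passed. For the 4, in pistil the odds ratios were 1.21 inside genes, 1.22 within 1 kb and 0.748 from 1 to 3 kb, and in IM 1.33 from 1 to 3 kb. With 50% of each partner they were 1.20 within 1 kb and 0.745 from 1 to 3 kb in pistil, and 0.885 inside genes in IM, no longer past the threshold. The pistil difference beyond 3 kb passed under both. The fewer shared or more weak peaks follow from how these settings are built, and other causes were not tested. No result changed direction past the threshold. With percentiles taken at 1 limit, an alternative added after seeing the data, auxin genes lower in pistil numbered 1 of 7 in place of 2 of 8. No paired analysis was possible because each tissue has 1 peak list called on its replicates together, and for the same reason no replicate could be left out. The planned description of motifs was not run. Read depth is unknown, and sites weaker than the end of either list were not detectable.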
